A study of Bos taurus with 8 samples.

Results

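The miRNAs described here are 8 that are abundant in white blood cells, measured in the extracellular vesicles (EVs) of bovine follicular fluid (FF). They were chosen by name, as bta-miR-142-5p, bta-miR-142-3p, bta-miR-223, bta-miR-150, bta-miR-155, bta-miR-146a, bta-miR-146b and bta-miR-342, and all 8 are among the 1028 miRNAs of the deposited table. Open Bos taurus crossbreed beef cows received a progesterone device, a GnRH analog and FSH before follicles were aspirated, once in summer (SUM) and once in winter (WIN), so hormonal stimulation is common to both groups. Each season has 4 small-RNA libraries, each from FF pooled from 2 cows, and the labels name no difference between the groups other than season. Each season was sampled once, so anything else that changed between the sessions cannot be told apart from season. The same cows were sampled in both seasons, and the labels do not say which SUM and WIN pools share cows. Values are TMM-adjusted CPM, read counts scaled to an adjusted library size. Their sum still differed between libraries, from 860872 in SUM replicate 3 to 1222033 in SUM replicate 2.

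miRNAs are short RNAs that guide Argonaute proteins to messenger RNAs and repress them. miR-142 is made almost only in blood cell lineages, where both arms of its hairpin are used. miR-223 belongs to neutrophils, monocytes and platelets, and miR-150 to mature lymphocytes. miR-155 and the miR-146 pair are induced by inflammatory signals, with miR-146 damping the response, and they are also made outside blood. miR-342 is abundant in lymphocytes and is also found in other tissues. Antral follicles have capillaries and immune cells in the theca around them, and aspirated FF can carry blood. In EVs, fewer source cells and less RNA per cell cannot be told apart.

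The libraries held 214004 to 1689467 miRNA reads, recovered from the CPM, in which all values were whole multiples of 1 read. SUM replicate 3 and WIN replicate 1 were the shallowest, and 1 read in them was worth 4.02 and 3.83 CPM, against 0.567 to 2.09 CPM in the other libraries. The 8 miRNAs took 2322 to 15424 reads per library. The limma test of season used log2(CPM + 1) of the 243 miRNAs that averaged over 10 CPM. Calls needed a Benjamini-Hochberg adjusted p under 0.1 together with a change of more than 1.5-fold. Of the 8 miRNAs, 6 entered this test, while miR-223 and miR-142-3p were below 10 CPM on average.

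The white blood cell miRNAs covered a wide range of levels, and 1 of them made up most of their sum. miR-146b ranked 19 among all detected miRNAs by mean CPM, with 9947 CPM over the 8 libraries. It held 87.2% to 94.3% of the CPM of the 8 miRNAs in each library. miR-142-5p (382 CPM, rank 81) and miR-155 (372 CPM, rank 83) followed at nearly the same mean. miR-342 (110 CPM, rank 128) and miR-146a (96.8 CPM, rank 135) came next, then miR-150 (24.6 CPM, rank 196), miR-223 (9.64 CPM, rank 246) and miR-142-3p (6.58 CPM, rank 274). Of the 4 members most restricted to blood cells, miR-142-5p thus stood well above the other 3. In the order of levels, miR-146b was above miR-142-5p, miR-155 above miR-342, and miR-146a above miR-150, each in 8 of 8 libraries. miR-142-5p was above miR-155 in 5 of 8 libraries and miR-342 above miR-146a in 4 of 8, so neither pair kept its order over the libraries. The libraries with miR-142-5p above miR-155 were every SUM library and WIN replicate 1. The order was also mixed between miR-150 and miR-223, and between miR-223 and miR-142-3p (6 of 8 libraries each).

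**Figure D1:**
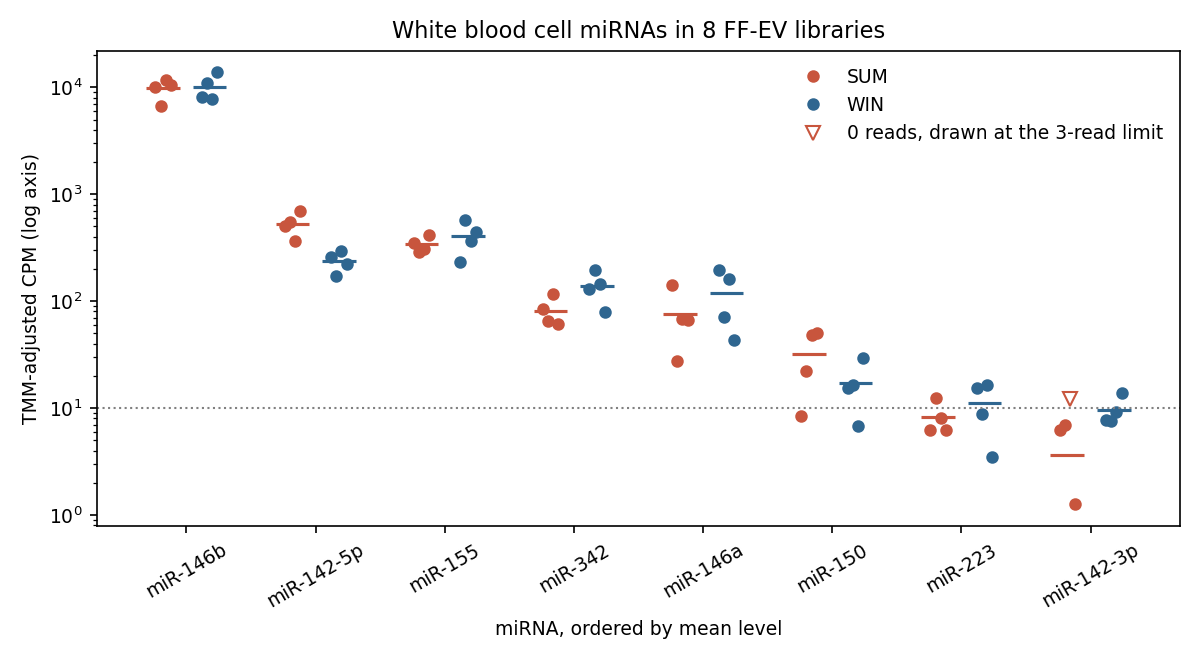
TMM-adjusted CPM (log axis) of the 8 white blood cell miRNAs in 4 SUM (red) and 4 WIN (blue) libraries, with the season mean as a line, a dotted line at 10 CPM, and the library without a read drawn as an open triangle at the CPM of 3 reads. The seasons part for miR-142-5p, which is higher in SUM, and for the few reads of miR-142-3p, which are higher in WIN.

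Together the 8 miRNAs held 1.04% ± 0.350 of the summed CPM in SUM and 1.18% ± 0.278 in WIN (SD, n = 4 each). Without miR-146b, the sum of the other 7 was 1069 ± 168 CPM for the SUM and 934 ± 103 CPM for the WIN libraries (SD, n = 4 each). Between the seasons, the summed levels overlapped on both measures.

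By season, the white blood cell miRNAs did not move as a group. By limma, 1 of the 6 tested members was higher in SUM, none was lower and 5 did not pass the thresholds. Over all 243 tested miRNAs, 5.35% were called higher and 2.47% lower. No tested member had every WIN library above every SUM library, as 7.82% of the tested miRNAs had. The median log2 fold change was -0.11 for the 6 members and 0.02 for all tested miRNAs. Of the members, 2 had a positive and 4 a negative log2 fold change.

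**Figure D2:**
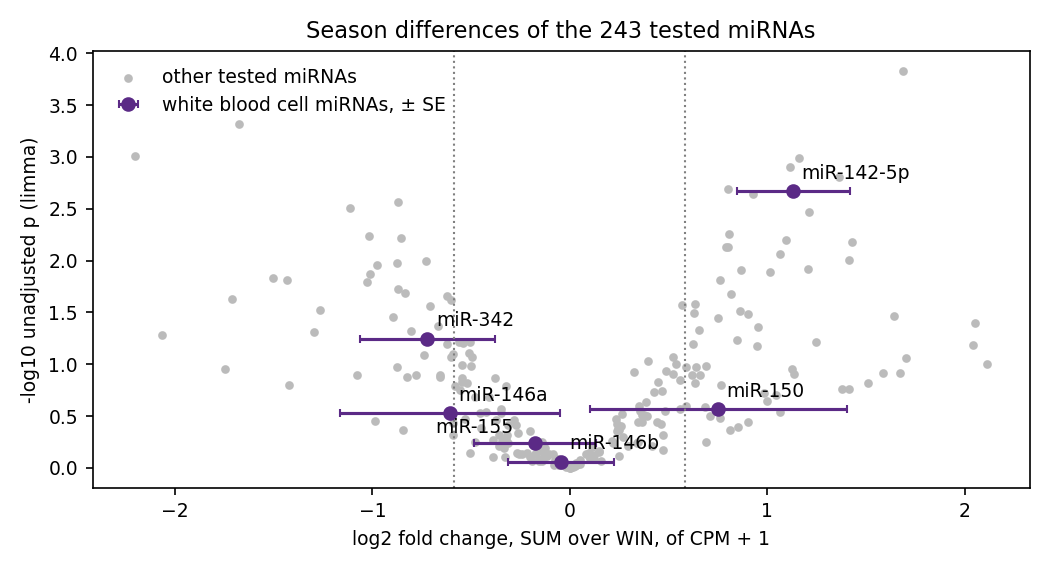
log2 fold change of SUM over WIN (x axis, on CPM + 1) against -log10 of the unadjusted limma p (y axis) for the 243 tested miRNAs in grey and the 6 tested white blood cell miRNAs in purple with their standard errors. miR-142-5p lies at 1.13, miR-342 at -0.72, and the other 4 lie lower, with miR-150 at 0.75 and miR-146a at -0.61; dotted lines mark a 1.5-fold change.

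miR-142-5p, the more abundant arm of the miR-142 hairpin in these libraries, was the member called higher in SUM. It had 500.0, 551, 362 and 693 CPM in SUM replicates 1 to 4 and 260, 174, 296 and 222 CPM in WIN replicates 1 to 4. Every SUM library was above every WIN library, as was true of 8.23% of the tested miRNAs. Its rank within a library was 68 to 77.5 in SUM and 91 to 106 in WIN. The season means, 527 ± 137 and 238 ± 52.6 CPM (SD, n = 4 each), gave a 2.21-fold higher level in SUM. The log2 fold change was 1.13 (standard error 0.29, limma adjusted p = 0.062). Equalising the summed CPM of the libraries shifted the median of all tested miRNAs to -0.17 and gave 11 higher and 22 lower calls, against 13 and 6. On that scale its log2 fold change was 0.95 (limma adjusted p = 0.049). This miRNA is also among those the study called on these same libraries, so its direction here is not independent evidence.

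The call of miR-142-5p depended on which libraries were included. Its log2 fold change stayed between 0.99 and 1.30 when any single library was left out, but the limma call was kept in 3 of these 8 fits. It ended without SUM replicate 2 (adjusted p = 0.18), SUM replicate 4 (adjusted p = 0.13), WIN replicate 2 (adjusted p = 0.16), WIN replicate 3 (adjusted p = 0.11) or WIN replicate 4 (adjusted p = 0.17). In those 5 fits, 0 to 2 miRNAs of all tested were called higher. Without the 2 shallowest libraries the log2 fold change was 1.35 (limma adjusted p = 0.029). This omission, here and below, was chosen after seeing the data.

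**Figure D3:**
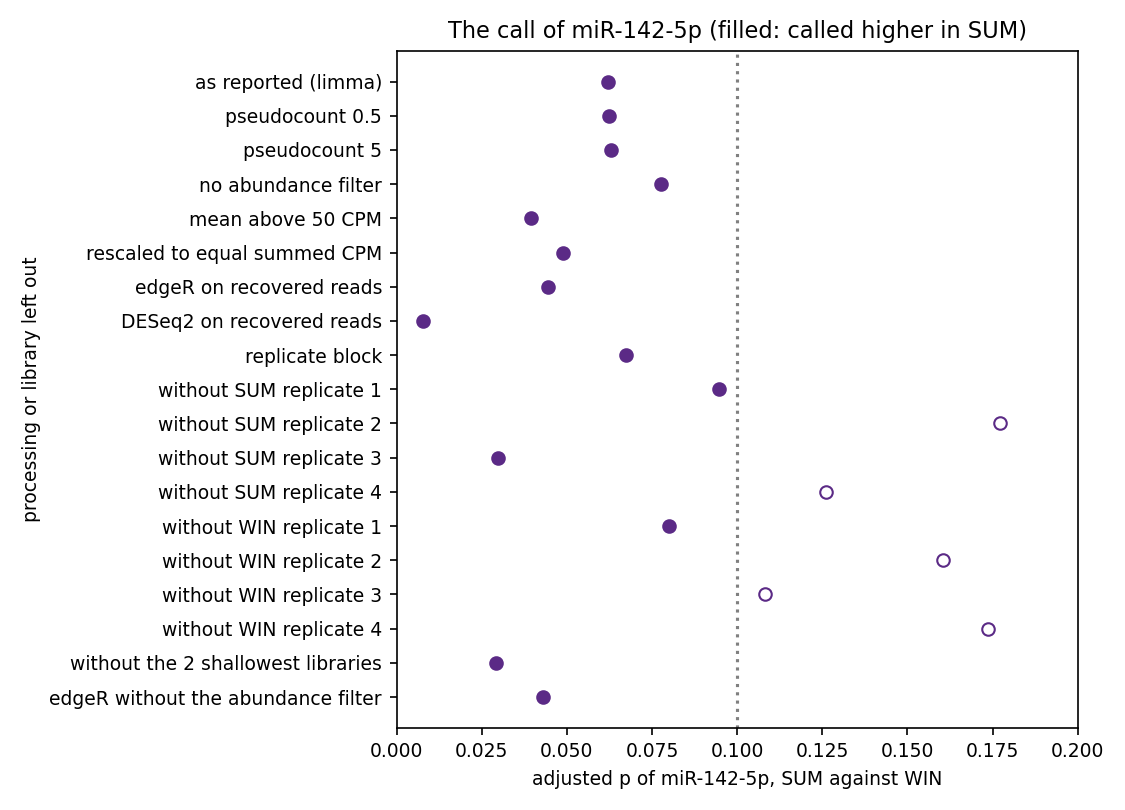
Limma, edgeR or DESeq2 adjusted p of miR-142-5p for SUM against WIN (x axis, dotted line at 0.1) under each processing alternative and with each library left out (y axis), filled where it was called higher in SUM. The 5 open points, at 0.11 to 0.18, are fits that leave out SUM replicate 2, SUM replicate 4, WIN replicate 2, WIN replicate 3 or WIN replicate 4.

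Few reads were counted for the other arm, miR-142-3p, in the FF-EV libraries, and how reads were assigned to it was not tested. It had 3, 5, 0 and 1 reads in SUM replicates 1 to 4, or 6.28, 6.89, 0 and 1.26 CPM. In WIN replicates 1 to 4 it had 2, 6, 16 and 8 reads, or 7.66, 7.60, 9.08 and 13.9 CPM. Each WIN value was thus above each SUM value, the reverse of the 5p arm, and this held for 3.85% of the 545 miRNAs detected in any library. For SUM replicate 3, however, a count of 0 allows up to 12.1 CPM (3 reads), which is above the values of 3 WIN libraries. Without the abundance filter, its log2 fold change was -1.61 (standard error 0.93, limma adjusted p = 0.54), so limma did not detect a difference at this depth. The exact permutation test of its CPM, which was not adjusted, gave p = 0.029. This is the lowest value possible with 4 libraries per season and follows from the separation already stated, so it adds nothing to it.

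Within a library, the share of the 5p arm among all miR-142 reads does not depend on how libraries are scaled. It was 98.8%, 98.8%, 100% and 99.8% in SUM replicates 1 to 4 and 97.1%, 95.8%, 97.0% and 94.1% in WIN replicates 1 to 4. The 5p arm therefore held most reads in every library, and the lowest SUM share lay above the highest WIN share. The means were 99.3% ± 0.666 in SUM and 96.0% ± 1.41 in WIN (SD, n = 4 each), a difference of 3.31 percentage points (exact permutation test, two-sided, p = 0.029, which is the lowest value possible with 4 libraries per season). As ratios, there were 80 reads of the 5p arm per read of the 3p arm in SUM replicate 2, where 5 reads came from the 3p arm, and 32.6 in WIN replicate 3, where 16 did. Counting error was wide in single libraries. The exact (Clopper-Pearson) 95% interval was 96.0% to 100% in SUM replicate 3 with 90 miR-142 reads, and 90.1% to 99.7% in WIN replicate 1 with 70. With the reads of a season summed, SUM had 1281 reads of the 5p arm and 9 of the 3p arm, and WIN had 855 and 32. Such intervals cover counting error only, since PCR copies were not told apart. The share is not independent of the season difference of miR-142-5p, which enters it. Without the 2 shallowest libraries the difference was 3.47 points and the seasons still did not overlap, but 3 libraries against 3 cannot go below p = 0.1 in the exact test.

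**Figure D4:**
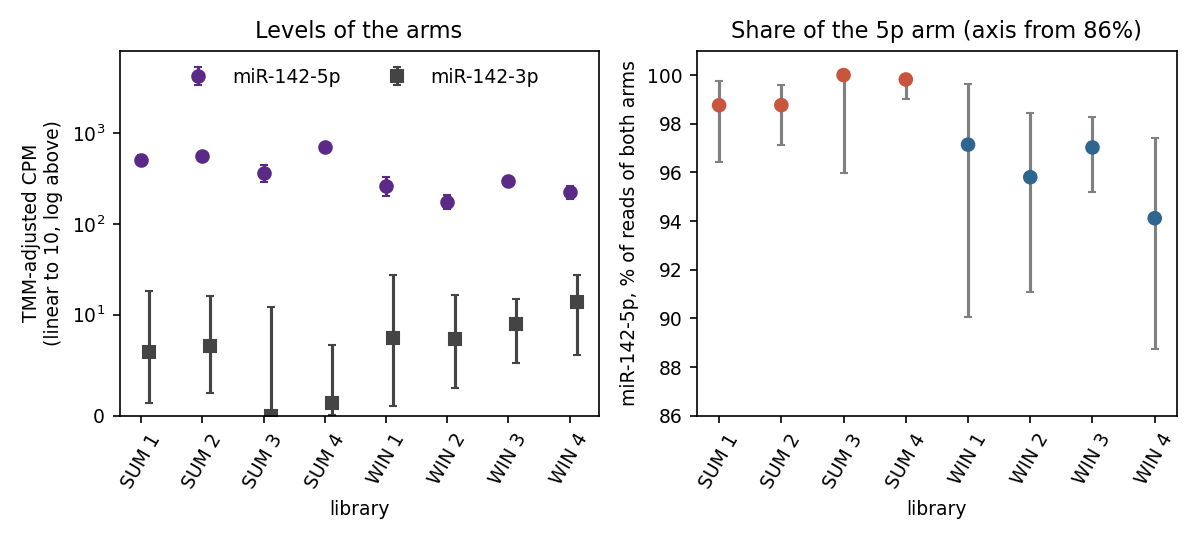
Left, TMM-adjusted CPM of miR-142-5p (circles) and miR-142-3p (squares) in each library with 95% Poisson intervals, or up to the CPM of 3 reads where there was no read (axis linear to 10 CPM and logarithmic above). Right, the 5p arm as a percent of the reads of both arms with exact 95% binomial intervals (axis from 86%), at 98.8% to 100% in the SUM libraries (red) and 94.1% to 97.1% in the WIN libraries (blue).

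miR-223, the myeloid and platelet miRNA, was also near the limit of detection. It had 6.28, 12.4, 8.05 and 6.28 CPM in SUM replicates 1 to 4 and 15.3, 8.87, 16.5 and 3.47 CPM in WIN replicates 1 to 4, from 2 to 29 reads per library. The seasons overlapped, and both the highest and the lowest value were in WIN. Without the abundance filter its log2 fold change was -0.24 (standard error 0.79, limma adjusted p = 0.92).

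miR-150, the lymphocyte miRNA, had 8.37, 22, 48.3 and 50.2 CPM in SUM replicates 1 to 4 and 15.3, 16.5, 6.81 and 29.5 CPM in WIN replicates 1 to 4. SUM replicates 3 and 4 were the highest, while SUM replicate 1 was among the lowest, so the seasons overlapped. The highest library was 7.38-fold above the lowest, the widest range of the 7 members that were detected in every library. Its log2 fold change was 0.75 (standard error 0.65, limma adjusted p = 0.53). Omitting SUM replicate 1 raised it to 1.26, and it was 0.47, 0.45 and 0.40 when SUM replicate 3, SUM replicate 4 or WIN replicate 3 was omitted. Its values rest on 4 to 40 reads per library.

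miR-155, which is induced in activated lymphocytes and macrophages, had 351, 289, 310 and 416 CPM in SUM replicates 1 to 4. In WIN it had 230, 570, 365 and 447 CPM. The WIN libraries spread more widely and enclosed the SUM libraries, with WIN replicate 2 the highest and WIN replicate 1 the lowest. The log2 fold change was -0.18 (standard error 0.31, limma adjusted p = 0.79), and it was 0.015 without WIN replicate 2 and -0.42 without WIN replicate 1.

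The miR-146 pair comes from separate genes, and the mature sequences are near-identical, so that reads could be split between them by the counting. miR-146b had 10067, 6650, 11835 and 10494 CPM in SUM replicates 1 to 4 and 8037, 10933, 7750 and 13813 CPM in WIN replicates 1 to 4. SUM replicate 2 was the lowest and WIN replicate 4 the highest, and the seasons overlapped. The log2 fold change was -0.04 (standard error 0.27, limma adjusted p = 0.95), and its sign turned when SUM replicate 2 (0.13), WIN replicate 2 (0.0058) or WIN replicate 4 (0.12) was omitted. miR-146a had 140, 27.5, 68.4 and 66.6 CPM in SUM replicates 1 to 4 and 195, 71.0, 162 and 43.3 CPM in WIN replicates 1 to 4. WIN replicates 1 and 3 and SUM replicate 1 were high and the others low, again with overlap. The log2 fold change was -0.61 (standard error 0.56, limma adjusted p = 0.55). It was -0.21 without SUM replicate 2, -0.29 without WIN replicate 1 and -0.38 without WIN replicate 3, but -0.98 without SUM replicate 1 and -1.0 without WIN replicate 4.

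miR-146b held nearly all reads of the pair, in contrast to the wide spread of miR-146a. Its share of miR-146 was 98.6%, 99.6%, 99.4% and 99.4% in SUM replicates 1 to 4 and 97.6%, 99.4%, 97.9% and 99.7% in WIN replicates 1 to 4. WIN replicates 1 and 3 had the lowest shares and WIN replicate 4 the highest. The exact (Clopper-Pearson) 95% intervals were narrow, at 97.7% to 98.2% in WIN replicate 3 and 99.5% to 99.8% in WIN replicate 4, so libraries of 1 season differed by more than counting error. The season means were 99.3% ± 0.427 in SUM and 98.7% ± 1.02 in WIN (SD, n = 4 each), a difference of 0.597 points (exact permutation test, two-sided, p = 0.34). The difference was 0.255 points without WIN replicate 1, 0.362 without WIN replicate 3 and 0.942 without WIN replicate 4.

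miR-342, abundant in lymphocytes, had 83.7, 64.7, 117 and 61.5 CPM in SUM replicates 1 to 4 and 130, 195, 145 and 79.7 CPM in WIN replicates 1 to 4. The WIN libraries were mostly higher, but WIN replicate 4 lay below SUM replicates 1 and 3. The means were 81.7 ± 25.3 and 137 ± 47.5 CPM (SD, n = 4 each). The log2 fold change was -0.72 (standard error 0.34, limma adjusted p = 0.25), the nearest to the threshold among the 5 members that were not called. After scaling to equal summed CPM it was -0.90 (limma adjusted p = 0.17).

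The members also did not rise and fall together across libraries. Over the 15 pairs of the 6 members above 10 CPM, the median Pearson r of log2(CPM + 1) was -0.16, with 7 positive and 8 negative values. Over all 29403 pairs of the 243 tested miRNAs the median was 0.04. The members' median was 0.12 after scaling to equal summed CPM, so its sign depends on the scaling. It was also 0.0079 without WIN replicate 1, 0.0017 without WIN replicate 4 and 0.059 without the 2 shallowest libraries. No pair passed an adjusted p of 0.05 in the exact permutation test over the 15 pairs, and 1 did before adjustment.

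That pair was miR-142-5p and miR-342, which ran in opposite directions (Pearson r = -0.79, exact permutation p = 0.025, adjusted p = 0.38, n = 8 libraries). Spearman's rho was -0.74 (exact permutation p = 0.046, adjusted p = 0.29). Without the 2 libraries farthest from the median of miR-142-5p, r was -0.51, and it was -0.59 for the deviations from the season means. The highest r was that of miR-155 and miR-146b, at 0.58 (exact permutation p = 0.14, adjusted p = 0.68, n = 8) with a rho of 0.57 (exact permutation p = 0.15, adjusted p = 0.43), 0.61 without the 2 libraries farthest from the median of miR-155 and 0.58 for the deviations from the season means. The miR-146 pair had an r of -0.16 (exact permutation p = 0.70, adjusted p = 0.81, n = 8) and a rho of -0.24 (exact permutation p = 0.58, adjusted p = 0.77). Without the 2 libraries farthest from the median of miR-146a that r was -0.90, so it turns on which libraries are included. The members peaked in different libraries. miR-142-5p and miR-150 were highest in SUM replicate 4, miR-146a in WIN replicate 1, miR-155 and miR-342 in WIN replicate 2, miR-223 in WIN replicate 3, and miR-146b and miR-142-3p in WIN replicate 4.

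**Figure D5:**
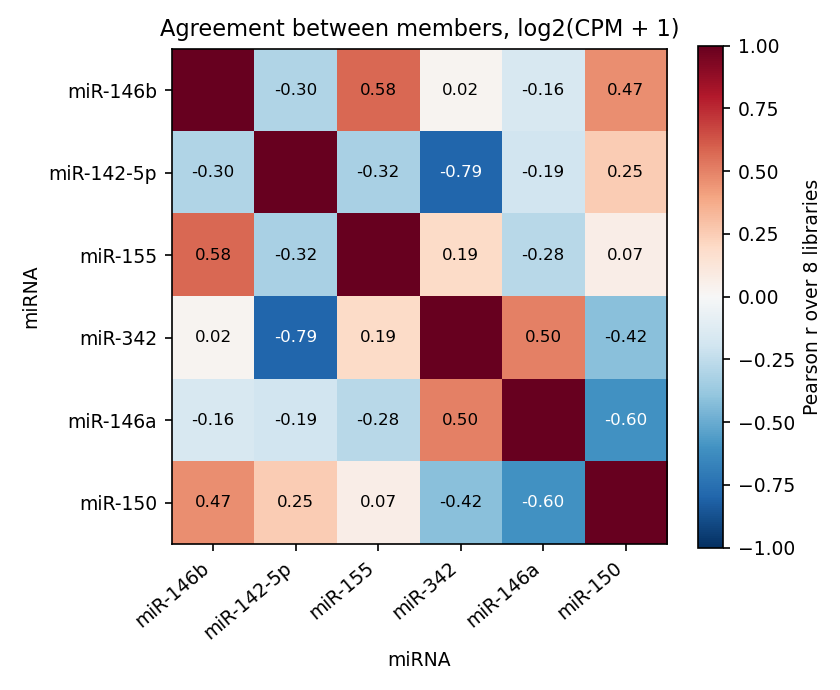
Pearson r of log2(CPM + 1) over the 8 libraries for each pair of the 6 white blood cell miRNAs above 10 CPM, from blue (-1) to red (1), with both axes ordered by mean level. Values run from -0.79 for miR-142-5p with miR-342 to 0.58 for miR-155 with miR-146b, without a block of members that go together.

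For the 6 members above 10 CPM, the closest of the 237 other tested miRNAs are given here. The values are the highest of 237 correlations over 8 libraries and are descriptions without a test. miR-142-5p was closest to miR-24-3p (r = 0.93) and miR-452 (r = 0.90), which were themselves called higher in SUM, with log2 fold changes of 1.16 and 1.43 (limma adjusted p = 0.060 and 0.094). As deviations from the season means, these r were 0.67 and 0.77. The study also called miR-24-3p and miR-452 on these same libraries. miR-150 was closest to miR-29b (0.91) and miR-23a (0.82), and miR-155 to miR-199a-3p (0.86) and miR-574 (0.80). miR-146a was closest to miR-495 (0.84) and miR-127 (0.70), both of the imprinted DLK1-DIO3 cluster, and miR-146b to miR-196b (0.67) and miR-218 (0.64). miR-342 was closest to miR-103 (0.86) and to miR-126-3p of endothelial cells (0.84), which was itself called lower in SUM. As deviations from the season means, the r of miR-342 with these miRNAs were 0.73 and 0.69.

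Other miRNAs with roles in immune cells, most of which are also made by many other cell types, were called in both directions. Of 15 on that list, 14 were tested, 2 were higher in SUM, 1 was lower and 11 did not pass the limma thresholds, against 5.35% called higher and 2.47% called lower over all tested miRNAs. Their median log2 fold change was 0.09, with 9 positive and 5 negative values. The higher were miR-24-3p and miR-222, a regulator of the cell cycle inhibitor p27 (log2 fold change 1.11, standard error 0.26, limma adjusted p = 0.060). The lower was miR-181a, which tunes T cell receptor signaling, with 133 ± 37.7 CPM for SUM and 289 ± 71.7 CPM for WIN (SD, n = 4 each, log2 fold change -1.11, standard error 0.30, limma adjusted p = 0.068). The list was chosen with earlier results of these data known. The study also called miR-24-3p, miR-222 and miR-181a on these same libraries, so these calls are not independent evidence.

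Markers of other cell types that FF could carry were also measured, and their sums include both abundant and scarce miRNAs. The 3 red blood cell miRNAs summed to 5262 to 12731 CPM in SUM and 2439 to 25918 CPM in WIN, with overlap and none of the 2 tested called. The log2 fold change was -0.02 for miR-451 (standard error 0.74, limma adjusted p = 0.99) and 0.77 for miR-486 (standard error 0.51, limma adjusted p = 0.36). Neither was the more abundant throughout. The SUM means were 3811 ± 1441 CPM for miR-451 and 5479 ± 2685 CPM for miR-486 (SD, n = 4). In WIN they were 6794 ± 8256 and 3444 ± 2536 CPM (SD, n = 4), with 18773 CPM of miR-451 in WIN replicate 1. miR-144 of that list had 0 to 4.02 CPM in SUM and 0 to 13.9 CPM in WIN, with no read in 2 libraries of each season. The highest sum was in WIN replicate 1, which was 1 of the 2 shallowest libraries and also had the highest miR-122. Whether these sums go with miR-142-5p over the libraries was not tested. The 2 endothelial miRNAs summed to 1065 to 2418 CPM in SUM and 2290 to 3596 CPM in WIN, nearly all miR-126-3p. Of the 2, miR-126-3p was called lower in SUM (log2 fold change -1.02, standard error 0.30, limma adjusted p = 0.094). The other arm, miR-126-5p, had 23.0 to 50.7 CPM over all libraries and was not called. Its log2 fold change was 0.12 (standard error 0.38, limma adjusted p = 0.90). The 5 epithelial miRNAs summed to 5831 to 14149 CPM in SUM and 4299 to 9279 CPM in WIN, with overlap. Only miR-200a among them was called, higher in SUM (log2 fold change 1.36, standard error 0.33, limma adjusted p = 0.062). The most abundant, miR-200b, had a log2 fold change of 0.15 (standard error 0.36, limma adjusted p = 0.88). For miR-200c, miR-141 and miR-429 it was 0.03, 0.29 and 0.90 (limma adjusted p = 0.96, 0.81 and 0.18). The 3 granulosa cell miRNAs summed to 6416 to 13372 CPM in SUM and 3955 to 6627 CPM in WIN, with none of the 2 tested called. The most abundant, miR-202, had a log2 fold change of 0.87 (standard error 0.29, limma adjusted p = 0.11). The liver miRNA miR-122 had 2730 to 3842 CPM in SUM and 2690 to 16943 CPM in WIN, and the 2 miRNAs of smooth muscle and stroma, nearly all miR-143, summed to 37607 to 55737 CPM and 31814 to 56745 CPM, with none called. The study also called miR-126-3p and miR-200a on these same libraries, so their directions here are not independent evidence. The part of these cell types in the season difference of miR-142-5p was not tested.

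In the RefSeq annotation of ARS-UCD2.0, used here for neighbours only, the miRNA genes lie apart from each other, with no other miRNA gene within 10 kb of any of them. MIR142 overlaps TSPOAP1, MIR223 overlaps VSIG4, a receptor gene of macrophages, and MIR342 overlaps EVL. MIR150, MIR155, MIR146A and MIR146B overlap no other annotated gene.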

How the data were processed

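Small RNA of FF-EVs was sequenced in 8 libraries, 4 SUM and 4 WIN. In CLC Genomics Workbench, the authors trimmed reads, annotated miRNAs from miRBase and mapped to the genome build ARS-UCD1.2. The deposited values are CPM after TMM adjustment, a signal for each miRNA in each library. The submitters' processing notes also name Bowtie2 2.2.2 and DESeq2. Reads were recovered by dividing by each library's smallest value above 0, and 100% of values were whole within 0.001. No 2 libraries agreed within counting noise.

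The season test was that of limma 3.58.1 (R 4.3.3), with a mean-variance trend and Benjamini-Hochberg adjustment over all tested miRNAs, and with edgeR 4.0.16 and DESeq2 1.42.0 on recovered reads as alternatives, and checked on simulated data. Shares and correlations used exact permutation tests (Python 3.11.15, numpy 2.4.6, scipy 1.17.1). Figures were drawn with matplotlib 3.10.9. P-values measure the spread between pools. The named miRNAs are the 8 members, the 2 closest outside miRNAs for each member above 10 CPM, and called or most abundant miRNAs of the marker lists. Members and lists were chosen with earlier results of these data known. All 8 members matched RefSeq genes of ARS-UCD2.0 by name.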

Additional observations from a re-analysis of the deposited data

How the results depend on the processing

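Calls over all miRNAs were 13 higher and 6 lower in SUM. They were 6 and 2 without the abundance filter, 20 and 15 with edgeR on recovered reads, 23 and 20 with DESeq2, and 24 and 11 without the 2 shallowest libraries (chosen after seeing the data). With means above 50 CPM there were 11 lower calls, and 22 after scaling to equal summed CPM, where 11 were higher. Leaving out each library gave 0 to 23 higher and 0 to 7 lower calls. With the replicate number as a block, 10 were lower, and no member's call changed. Equal numbers gave correlations of -0.02 to 0.30 between seasons, and 4 of 8 libraries were closest to their own number, so the pairing is not shown. For the miR-142 arm share, the paired test gave the same 3.31 points (exact p = 0.13, the smallest that 4 pairs allow), and without the 2 shallowest libraries the difference was 3.47 points (exact p = 0.1). miR-142-5p kept its call under 13 of 18 alternatives. Among the left-out libraries the log2 fold change ran from -0.16 to 0.13 for miR-146b (0.0058 without WIN replicate 2, 0.12 without WIN replicate 4) and from -0.42 to 0.015 for miR-155, the only 2 of the 6 tested members whose direction turned under an alternative run. The season difference of the miR-146b share ran from 0.197 to 0.942 points, and the median r between members from -0.19 to 0.12. Where not stated, the cause of a change was not tested. Depth limits miR-142-3p, miR-223 and miR-150, which have 40 reads or fewer per library.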

Other observations

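Ratios between members within a library do not depend on scaling. The following were chosen after their values were seen and are given without a test. miR-142-5p per miR-155 was 1.42, 1.90, 1.17 and 1.67 in SUM replicates 1 to 4 and 1.13, 0.304, 0.812 and 0.496 in WIN replicates 1 to 4. miR-142-5p was thus the more abundant of the pair in every SUM library and in WIN replicate 1, and miR-155 in the other 3 WIN libraries. The seasons were barely apart, at 1.17 in SUM replicate 3 and 1.13 in WIN replicate 1, the shallowest libraries. These values rest on 90 reads of miR-142-5p over 77 of miR-155, and on 68 over 60. miR-142-5p per miR-342 was 5.97, 8.51, 3.10 and 11.3 in SUM and 2, 0.890, 2.05 and 2.78 in WIN, again without overlap. The nearest values of the seasons, 3.10 and 2.78, rest on 29 and 46 reads of miR-342. miR-142-5p enters each ratio given here and its own levels parted by season, so these ratios are not independent of that difference. How often other pairs part by season was not counted. miR-142-5p per miR-223, both restricted to blood cells, was 79.7, 44.4, 45 and 110.4 in SUM and 17, 19.6, 18 and 64 in WIN, where WIN replicate 4 overlapped with SUM. Few reads of miR-223 underlie these ratios in both seasons, with 2 in SUM replicate 3, 3 in SUM replicate 1 and 2 in WIN replicate 4.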
